A study of Mus musculus with 2 samples.

Results

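The Zfp genes are the mouse genes named for a zinc finger, and the 130 described here are the protein-coding ones whose name is Zfp followed by a number and that drew at least 20 long reads over 2 hippocampus libraries. The rule counted reads of every transcript class, so the read totals that follow are values the genes were chosen by and are given as a description. Of 394 protein-coding genes with such a name in GENCODE M21, 130 (33.0%) met the rule, 220 had 1 to 19 reads and 44 had none. Of all 22028 protein-coding genes of that catalogue, 39.1% had at least 20 reads, and 8489 of these were not Zfp genes. Each of the 130 was seen in both libraries.

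The tissue was hippocampus, which the labels call a layer of that structure, taken at the age of 14 days from males of B6CASTF1/J, a first-generation cross between C57BL/6J and CAST/EiJ. No treatment is named. The labels give 3 males per library and 2 µg of starting RNA, and call the libraries biological replicates. The labels of the samples name different males, but a label of the experiment repeats the animals of replicate 1 for both libraries. Their spread may therefore be technical. There is 1 group and no contrast between conditions. Replicate 1 held 821324 mouse reads and replicate 2 held 743862, so 1 read made 1.22 CPM (its share of all mouse reads, scaled to 1000000) in replicate 1, against 1.34 in replicate 2. Where a gene has no read, up to 3 reads remain possible, a level of 3.65 CPM for replicate 1 and of 4.03 for replicate 2. Intervals and this limit cover counting error only, since amplified reads are not independent molecules. Markers of cell types were present. Slc17a7 of pyramidal neurons had 1105 reads in replicate 1, against 906 in replicate 2, and Gja1 of astrocytes had 842 and 733. Of the dentate granule markers, C1ql2 had 89 and 111 reads and Prox1 only 12 and 20 in the same order. Alb of liver and Ins2 of pancreas had none. Reads of the myelin genes were not even, with Mbp at 3077 reads in replicate 1 and 1255 in replicate 2. Ttr of the choroid plexus had 159 and 65 reads in the same order. The part of such differences in the values below was not tested. The labels name no cell sorting, so in this bulk tissue fewer cells of a type and less RNA per cell cannot be told apart.

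A C2H2 zinc finger is a short protein loop held by a zinc ion between a pair of cysteines and a pair of histidines, and runs of such fingers read DNA base by base. Many Zfp proteins carry a KRAB box before the fingers, which recruits the co-repressor Trim28 and through it a histone methyltransferase and heterochromatin proteins, and these proteins are known for silencing transposable elements and for guarding imprinted genes. Others carry a SCAN domain, through which they pair, and some are not DNA-binding repressors at all but bind RNA, ribosomes or the spindle. Gene numbers of the family change fast in evolution, and its genes often lie side by side as near copies.

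The coding sequence of the first finger in 4 of the most abundant finger genes follows because the finger is what gives the family its name. Each runs 5′ to 3′ on the coding strand, from GENCODE M21 transcripts on mm10, with the codons of the zinc-binding cysteines and histidines in capitals. They stand at chr15:37001896-37003700 (minus strand, in 2 coding exons) for Zfp706, chr7:127253856-127253918 (plus strand) for Zfp771, chr15:76854220-76854282 (minus strand) for Zfp251 and chr5:138607043-138607105 (minus strand) for Zfp68, the last 3 in 1 coding exon each.
Zfp706: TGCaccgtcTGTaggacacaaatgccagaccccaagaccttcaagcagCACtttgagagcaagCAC
Zfp771: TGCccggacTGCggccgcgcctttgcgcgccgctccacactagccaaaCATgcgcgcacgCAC
Zfp251: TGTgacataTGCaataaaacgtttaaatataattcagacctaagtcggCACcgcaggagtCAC
Zfp68: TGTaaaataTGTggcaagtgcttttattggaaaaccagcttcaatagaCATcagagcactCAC
The finger of Zfp706 is 66 bases long, and the other 3 are 63 bases long.

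The 130 genes together held 3886 reads in replicate 1 and 3555 in replicate 2, which is 0.473% and 0.478% of the mouse reads. These were 80.7% of the reads of all 394 Zfp genes. Each read was counted once for 1 model, so reads were compared between genes without dividing by length. Any effect of transcript length or amplification on these comparisons was not tested. Reads were spread unevenly: Zfp706 alone held 15.0% of the reads of the 130 genes, the first 3 genes held 23.2% and the first 10 held 33.7%. The median Zfp gene of the 130 had 36.5 reads over both libraries, and the median of the 8489 other protein-coding genes with at least 20 reads was 72. Only 10 genes reached 100 reads, while 33 had 50 to 99, 46 had 30 to 49 and 41 had 20 to 29.

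Zfp706, a small protein with a single finger that in mouse embryonic stem cells represses the self-renewal programme, had 575 reads in replicate 1, against 543 in replicate 2, or 715 ± 21.1 CPM (SD, n = 2), and ranked 127 among all protein-coding genes. Zfp365, the DISC1-binding protein also called DBZ, followed with 189 and 172 reads in replicates 1 and 2, or 231 ± 0.784 CPM (SD, n = 2). Zfp523, the mouse counterpart of human ZNF76, had 130 and 119 reads in replicates 1 and 2. These 3 genes stood apart from the rest, and in each of them the libraries differed little, with 700 and 730 CPM for Zfp706, 230 and 231 for Zfp365 and 158 and 160 for Zfp523 in replicates 1 and 2.

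Next came Zfp207, the spindle protein BuGZ that binds Bub3, with 69 reads in each library. Zfp771 had 55 reads in replicate 1, against 61 in replicate 2, and Zfp512 had 58 and 53 in the same order. Zfp251, a KRAB gene, had 51 and 57 reads, and Zfp68, another KRAB gene, had 42 and 63 reads in replicates 1 and 2. Zfp24, a SCAN gene that oligodendrocytes need to myelinate in mice, had 46 and 57 reads, and Zfp651 had 49 and 52 reads in replicates 1 and 2. From Zfp207 to Zfp651 the mean level ran from 88.4 ± 6.19 to 64.8 ± 7.24 CPM (SD, n = 2). Both libraries of Zfp207 lay above both of Zfp771, while from Zfp771 to Zfp651 each gene's range overlapped that of its neighbour. At the lower edge, Zfp397 had 10 reads in each library, Zfp868 had 13 and 7 and Zfp940 had 11 and 9 in replicates 1 and 2. Zfp955a, Zfp971 and Zfp995 tied with them at 20 reads over both libraries. Just outside the rule stood Zfp39, Zfp839 and Zfp959 with 10 and 9 reads each and Zfp646 with 11 and 8 in replicates 1 and 2.

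**Figure D1:**
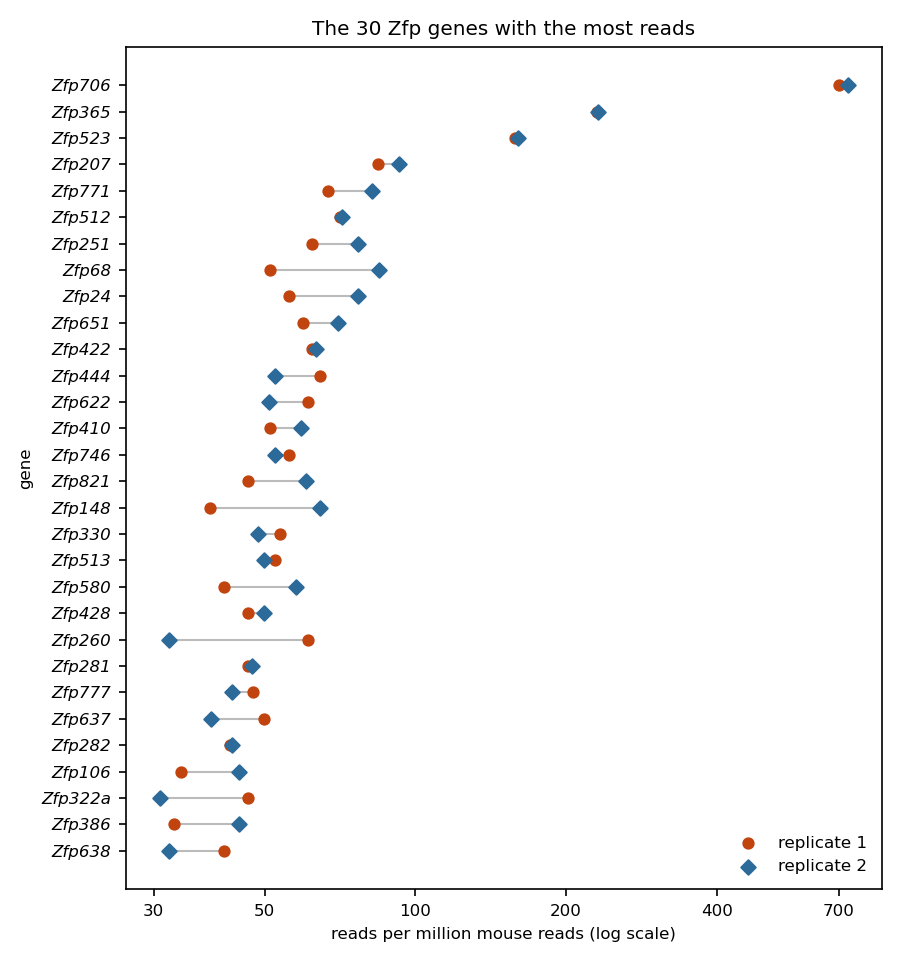
CPM (log axis) of the 30 Zfp genes with the most reads, with a circle for replicate 1 and a diamond for replicate 2. Zfp706, Zfp365 and Zfp523 stand apart at 715, 231 and 159 CPM on average, and the other 27 lie under 100 CPM.

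The test between the libraries compares these 2 libraries with counting error and no conditions. None of the 130 genes differed by Fisher's exact test, two-sided, adjusted by Benjamini-Hochberg over all 8875 genes with at least 20 reads, against 1.58% of all genes tested (140 genes, 74 higher and 66 lower in replicate 1), and the lowest adjusted p among the Zfp genes was 0.230. Without adjustment, 5 of the 130 (3.85%) had p under 0.05, against 10.3% of all genes tested. The median log2 ratio of replicate 1 over replicate 2 was 0.00 over the 130 Zfp genes (quartiles -0.25 and 0.26) and -0.01 over all genes tested (quartiles -0.27 and 0.23). The ratio was above 0 for 65 of the 130 by CPM and below 0 for the other 65. Counts this low limit what can be seen, so a missing call does not show equal levels.

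The widest ratios belonged to genes with few reads. Zfp553 had 17 reads in replicate 1, against 4 in replicate 2, a log2 ratio of 1.82 (Fisher's exact adjusted p = 0.230), and Zfp981 had 10 and 23 (log2 ratio -1.31, Fisher's exact adjusted p = 0.282). Of the 33 reads of Zfp981, 32 lay on models that shared no base with its annotated exons. Among genes with at least 40 reads, Zfp260 had the widest ratio above 0, at 50 reads in replicate 1 against 24 in replicate 2, a log2 ratio of 0.90 (Fisher's exact adjusted p = 0.244). Zfp655, with 30 and 18 reads, and Zfp322a, with 38 and 23 reads in replicates 1 and 2, came after it. Below 0 stood Zfp68 (log2 ratio -0.72), Zfp148 with 32 and 48 reads (log2 ratio -0.72) and Zfp580 with 34 and 43 reads (log2 ratio -0.48) in replicates 1 and 2.

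**Figure D2:**
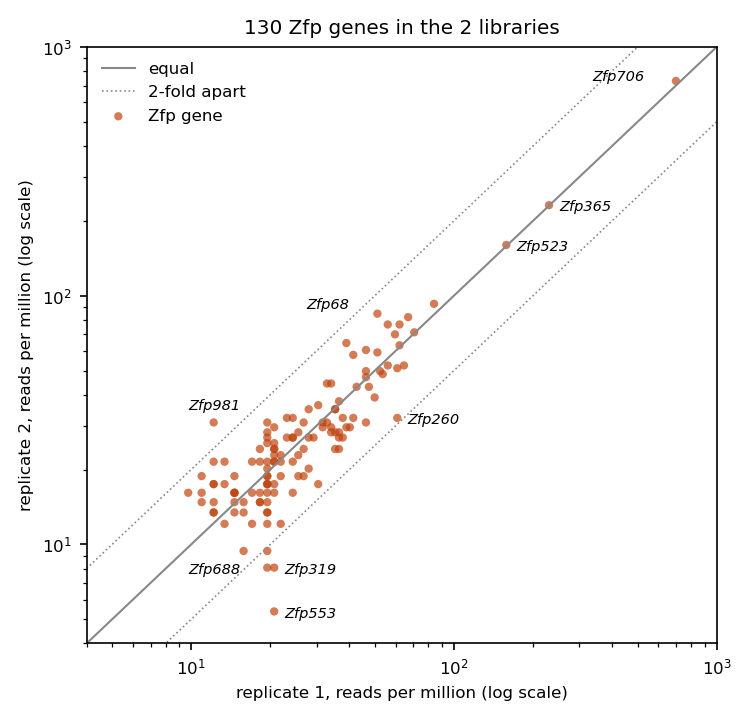
CPM of the 130 Zfp genes in replicate 1 (horizontal, log axis) and replicate 2 (vertical, log axis), with the line of equal level and dotted lines at 2-fold. The scatter narrows with level, and 5 genes, all with few reads, lie outside the 2-fold lines.

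By the domains of the longest coding sequence, 52 of the 130 genes coded for a KRAB-A box, 4 for a SCAN domain without one and 69 for fingers without either. In the other 5 no C2H2 finger was found. Among all Zfp genes of the catalogue, 52 of 231 KRAB genes (22.5%), 4 of 8 SCAN genes, and 69 of 142 genes with fingers alone (48.6%) had reached 20 reads. Since reads chose the genes, these shares are a description. KRAB genes had a median of 31.5 reads and at most 108 (Zfp251), and genes with fingers alone had a median of 48 reads and at most 1118. The KRAB share was 40% in the 130 genes, 67.3% in the 220 Zfp genes with 1 to 19 reads and 70.5% in the 44 with none. The median number of fingers was 8.5 in the 130 genes, 11 in those with 1 to 19 reads and 10.5 in those with none. Zfp423, which is needed for cerebellar development in mice, had the most fingers at 27, followed by Zfp788 at 23 and Zfp27 at 21. In all 52 KRAB genes the whole finger array was coded in 1 exon, as in 38 of the 73 finger genes without KRAB-A.

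The 5 genes in which no C2H2 finger was found were Zfp365, Zfp330, Zfp36l2, Zfp703 and Zfp36l1. Fingers with another spacing of cysteines and histidines than the one searched for would be missed. Zfp36l2 and Zfp36l1 carry a pair of CCCH fingers instead and bind AU-rich messages to speed their decay. Zfp36l2 had 19 reads in replicate 1, against 20 in replicate 2, and Zfp36l1 had 10 and 11, while their relative Zfp36 had 2 and 0 reads and Zfp36l3 had none, both below or at the limit a count of 0 allows. Of the 4 genes in that group, 2 reached 20 reads and neither differed between the libraries, against 1.58% of all genes tested.

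Some Zfp proteins work outside DNA binding. Of 13 genes in the catalogue listed for work on RNA, ribosomes, ubiquitin or the spindle, 11 reached 20 reads. None of the 11 differed between the libraries, against 1.58% of all genes tested, and their median log2 ratio was 0.25. Zfp706 led this list by reads, though the role given for it above is that of a repressor, and Zfp207 came second. The next was Zfp622, a factor of large ribosomal subunit assembly, with 50 reads in replicate 1 and 38 in replicate 2. Zfp598, the ubiquitin ligase of collided ribosomes, had 32 and 22 reads, and Zfp346, which binds double-stranded RNA, had 28 and 21 reads in replicates 1 and 2. Of 14 genes known from neural development or disease, 6 reached 20 reads and none differed, against 1.58% of all genes tested. The 6 were led by Zfp365, Zfp24 and Zfp148. The others were Zfp281, Zfp423 and Zfp335, while Zfp521, Zfp536, Zfp462 and Zfp804a stayed under 20 reads.

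Of 8 KRAB genes with known targets, only Zfp445 and Zfp932 reached 20 reads. Zfp445, which protects imprinted genes in mice, had 16 reads in replicate 1, against 19 in replicate 2, and Zfp57, which shares that role, had 3 and 8. Zfp809, which silences retroviruses in mouse stem cells, had 1 and 3 reads in replicates 1 and 2, and Zfp568 had none. Of the partners of the KRAB box, 15 of 19 co-repressor genes reached 20 reads. None of the 15 differed between the libraries, against 1.58% of all genes tested, and their median log2 ratio was -0.01. In lists this short, a count of 0 beside that share says little. Trim28 itself had 230 reads in replicate 1, against 218 in replicate 2. Cbx3, a heterochromatin protein, had 131 and 166 reads (log2 ratio -0.48, Fisher's exact adjusted p = 0.164), and the deacetylase Hdac2 had 134 and 81 reads in replicates 1 and 2 (log2 ratio 0.58, Fisher's exact adjusted p = 0.158). Setdb1, the histone methyltransferase that Trim28 recruits, had 25 and 20 reads in replicates 1 and 2.

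The class of each transcript model, which marks its relation to the catalogue, was not used by the rule. Annotated transcripts held 64.0% ± 0.93 of the reads of the 130 Zfp genes and 72.4% ± 1.12 of the reads of the 8489 other genes (SD, n = 2). New combinations of annotated splice sites held 11.9% ± 0.16 of Zfp reads and 6.71% ± 0.05 of the others' reads, and models with a new splice site held 6.83% ± 0.09 and 3.99% ± 0.01 (SD, n = 2). Genomic models, which hold unspliced or partly unspliced sequence, took 8.16% ± 0.91 of Zfp reads and 6.36% ± 0.91 of the others' reads, and incomplete splice matches took 9.10% ± 0.23 and 10.5% ± 0.28 (SD, n = 2). In both libraries the Zfp genes had the lower annotated share and the higher share of either new class, by more than the libraries differed, and no test was made on 2 libraries. The Zfp genes also had fewer reads per gene, so the shares were set side by side among genes with under 100 reads, a bound chosen after seeing the data. There, new combinations held 15.3% ± 0.48 of the reads of 120 Zfp genes and 9.58% ± 0.20 of those of 5259 other genes, and annotated transcripts held 53.9% ± 1.93 and 59.9% ± 0.74 (SD, n = 2). The genomic shares, 10.8% ± 0.97 in the Zfp genes and 10.4% ± 1.02 in the others, then differed by less than the libraries (SD, n = 2). Models seen with a single read weigh on the new splice site class: without them it held 3.04% ± 0.32 of Zfp reads and 2.02% ± 0.07 of the others' reads (SD, n = 2).

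**Figure D3:**
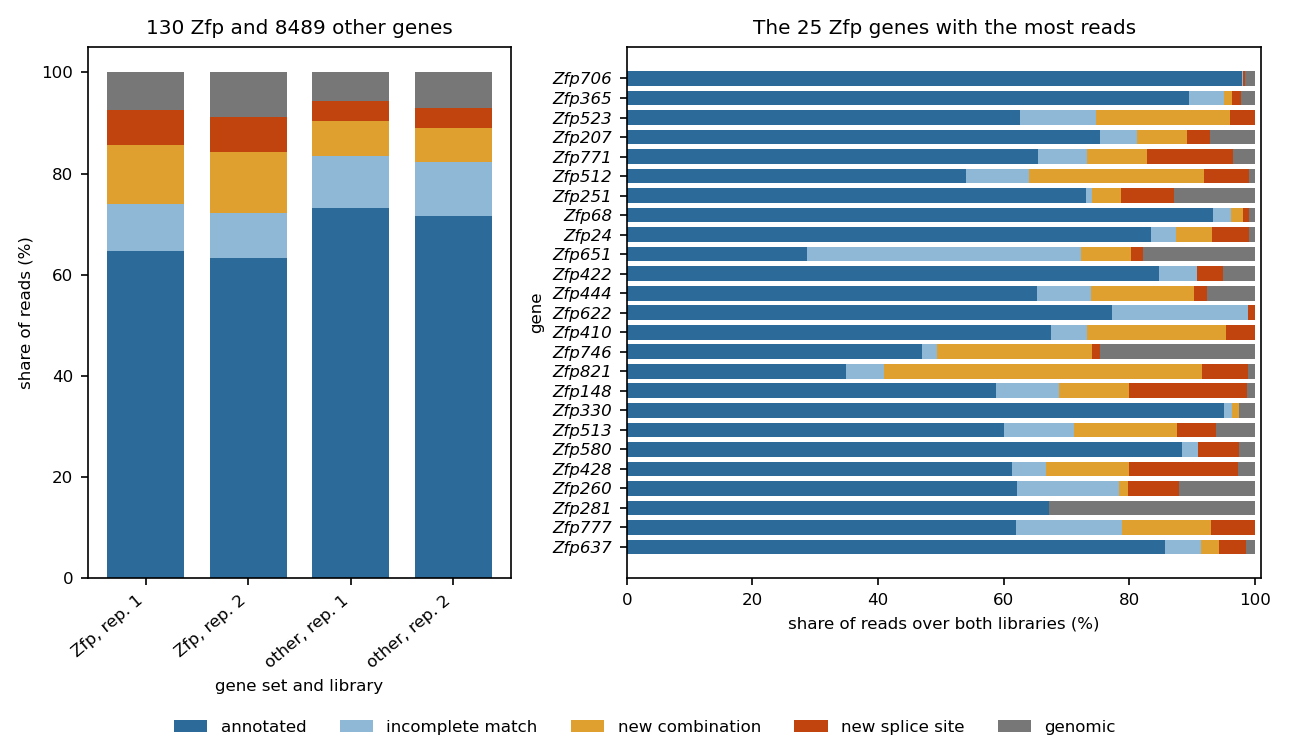
Share of reads by transcript class, for the 130 Zfp genes and the 8489 other protein-coding genes in each library (left) and for the 25 Zfp genes with the most reads over both libraries (right). The annotated share is 64.0% on average in the Zfp genes and 72.4% in the others, and single genes run from nearly all annotated (Zfp706) to 28.7% annotated (Zfp651).

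Single genes differed widely in class. Zfp706 was 97.9% annotated, Zfp579 was 95.5% and Zfp330 came next, the highest among genes with at least 40 reads. The lowest of those genes were Zfp869 at 4.76%, Zfp106 at 8.20% and Zfp942 at 10.9%. In 21 of the 130 genes the most abundant transcript was not in the catalogue, and in 19 of these 21 it was seen in both libraries. The main transcript of Zfp869 was an unannotated model of 5 exons with 11 reads in replicate 1 and 8 in replicate 2, 46.3% of its annotated and new reads (Wilson 95% interval 32.1% to 61.3%). Zfp2, Zfp532 and Zfp981 had no annotated read. The 130 genes together held 705 unannotated structures with 1393 reads, and the 148 structures that recurred in the second library accounted for 54.1% of those reads.

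The share of the main transcript did not differ between the libraries in any of the 30 Zfp genes with at least 20 annotated and new reads in each (Fisher's exact test, two-sided), against 0.162% of all 4939 genes tested. Without adjustment 1 of the 30 had p under 0.05, against 3.64% of all genes tested. That gene was Zfp821, with 15 of 33 reads on the main transcript in replicate 1 and 10 of 44 in replicate 2. The most divided genes with at least 40 such reads were Zfp638, whose main transcript held 14.0% of them, Zfp672 with 22.0%, Zfp942 with 23.5%, Zfp692 with 23.8% and Zfp715 with 29.5%. Zfp706 and Zfp365 stood at the other end with 99.5% and 97.0% on 1 transcript.

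Genomic models were seen in 100 of the 130 genes, and the 5 genes with the most such reads held 134 of 605. In 8 of the 130 genes (6.15%) they held at least 50% of reads, and the same held for 4.46% of the 8489 other genes. Among genes with at least 40 reads, Zfp106, an RNA-binding protein that mouse motor neurons need, had the highest share at 60.7%, followed by Zfp46 at 34.0% and Zfp281 at 32.9%, while 11 such genes had none, among them Zfp523, Zfp410 and Zfp414. Of the 605 genomic reads of the 130 genes, 95.5% had a single exon and 62.3% ended within 100 bases of an annotated transcript end. The genes fell in different kinds. All 37 genomic reads of Zfp106 and all 17 of Zfp36l1 lay within annotated exons and ended near an annotated end. All 14 of Zfp850 and all 32 of Zfp981 lay outside annotated exons. Those of Zfp850 all had a single exon, while only 9 of the 32 of Zfp981 did. The 24 genomic reads of Zfp281 had 93.6% of their bases in annotated exons and none ended near an annotated end.

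A read can stand for the finger protein only if it covers the fingers. Over the 125 genes with a C2H2 finger, 83.6% of reads in replicate 1 and 81.6% in replicate 2 lay on models that covered every finger of the longest coding sequence. The median gene stood at 87.0%, with 58 genes at 90% or more and 19 under 50%. Annotated models covered all fingers for 94.0% of their reads, new combinations for 85.8%, new splice sites for 83.7%, incomplete matches for 58.5% and genomic models for 17.4%. Annotated models carry the exon positions of the catalogue and not the ends of their reads, so cover within that class can be overstated. Incomplete matches were 66.1% of the kind that lacks the 5′ part. Genes with fingers in more than 1 exon and no KRAB-A box had a median of 72%, and those with fingers in 1 exon had 91.1%. The lowest of the genes with spread-out fingers were Zfp106 at 8.20% (5 finger exons), Zfp318 at 15.4% (2) and Zfp423 at 16.7% (5).

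In KRAB genes a transcript can hold the KRAB box and lack the fingers. Leaving out catalogue models whose end is marked as not found, 57 of 526 annotated reads of the 52 KRAB genes in replicate 1 (10.8%) and 50 of 524 in replicate 2 (9.54%) fell on transcripts that code for KRAB-A and no finger. They came from 12 genes. In Zfp931 all 10 annotated reads of replicate 1 and all 11 of replicate 2 were of this kind (Wilson 95% interval over both 84.5% to 100%). In Zfp971 it was 7 of 8 reads in replicate 1 and 7 of 9 in replicate 2, and in Zfp970 it was 2 of 2 and 5 of 6. These 3 genes lie on chromosome 2, and the main such transcript of each is annotated as protein-coding and lacks the finger exon. In Zfp931-201 and Zfp971-201 the exon after the KRAB exon runs on past its splice site and ends the transcript, and Zfp970-201 splices instead to another last exon downstream of the fingers. Zfp931-201 codes for 64 residues, Zfp971-201 for 64 and Zfp970-201 for 76. In Zfp943, on chromosome 17, 3 of 11 reads in each library were on a transcript whose KRAB exon runs on in the same way.

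In Zfp938, Zfp90 and Zfp120 the main such transcript kept the finger exon, but its annotated coding sequence stops before it. Zfp938-202 had 11 reads in each library, against 6 in replicate 1 and 7 in replicate 2 for Zfp938-201, which codes for the 10 fingers. It uses another donor site that makes the exon before the fingers 147 bases long in place of 61, and its annotated coding sequence stops in that exon. The transcript of Zfp90 with an acceptor site that adds 94 bases had 10 reads in replicate 1, against 6 in replicate 2, against 3 in each for the finger-coding Zfp90-201. Zfp120-204, with 84 bases added at the donor, had 3 reads in each library, and Zfp120-201, with 9 fingers, had 5 in replicate 1 and 10 in replicate 2. The catalogue classes all 3 lengthened transcripts as targets of nonsense-mediated decay. That type held 1.17% of the annotated reads of the 130 genes and 0.464% of those of the other genes. Of its 56 reads, 44 lay in Zfp938, Zfp90 and Zfp120, and in the remaining 127 Zfp genes it held 12 of 4681 annotated reads (0.256%).

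The KRAB-A coding stretches of the 3 chromosome 2 genes are shown because the reads of these genes rest on that exon and the genes are near copies there. They are 111 bases long, from GENCODE M21 on mm10, at chr2:178069833-178069943 (minus strand) for Zfp931, chr2:177473292-177473402 (plus strand) for Zfp970 and chr2:178031261-178031371 (plus strand) for Zfp971, 5′ to 3′, with the bases that differ among them in capitals.
Zfp931: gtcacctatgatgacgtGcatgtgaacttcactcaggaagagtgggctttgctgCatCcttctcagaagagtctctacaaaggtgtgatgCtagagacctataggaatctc
Zfp970: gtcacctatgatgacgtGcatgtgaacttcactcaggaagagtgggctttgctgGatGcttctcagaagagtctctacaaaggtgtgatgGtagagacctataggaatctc
Zfp971: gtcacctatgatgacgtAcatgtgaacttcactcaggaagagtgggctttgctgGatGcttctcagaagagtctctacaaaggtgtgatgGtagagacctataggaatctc
Zfp970 and Zfp971 differed at 1 base (99.1% identical) and Zfp931 and Zfp970 at 3 (97.3% identical), so reads that end soon after this exon could be split between copies by the alignment.

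**Figure D4:**
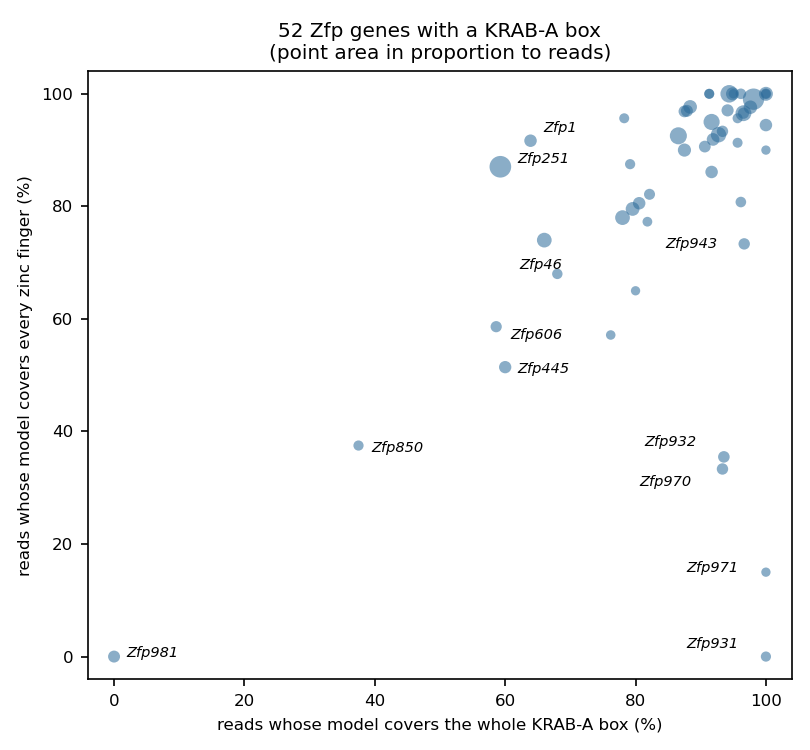
For each of the 52 Zfp genes with a KRAB-A box, the share of reads whose model covers the whole box (horizontal, %) and the share whose model covers every finger (vertical, %), over both libraries. Most genes sit near the top right, while Zfp931, Zfp971, Zfp970 and Zfp932 cover KRAB-A in 93.3% to 100% of reads and the fingers in 0% to 35.5%.

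For Zfp932 the cover is uncertain, since its most abundant transcript, with 2 reads in replicate 1 and 6 in replicate 2, is a catalogue model whose end was not found, and whether those reads reach the fingers was not tested. The opposite pattern, cover of all fingers without the whole KRAB-A box, held 7.17% of the reads of KRAB genes in replicate 1 and 4.50% in replicate 2. This measure takes all reads and the longest coding sequence of the gene. It cannot be set against the shares of KRAB-A without fingers above, which used the own coding sequence of annotated transcripts. By cover Zfp251 had the most such reads, and in it 87.0% of reads covered all 11 fingers and 59.3% covered KRAB-A. Cover misses Zfp68, where 98.1% of reads covered the KRAB-A bases of the longest coding sequence. Its main transcript, Zfp68-202, codes by its own coding sequence for 9 fingers and no KRAB-A box. It had 21 reads in replicate 1 and 33 in replicate 2. Zfp251-203, of 3 exons and with no annotated coding sequence, had 16 reads in replicate 1 and 10 in replicate 2. Whether reads that do not cover KRAB-A code for a finger protein was not tested.

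Exons that were included in 5% to 95% of spliced reads numbered 93 in 53 of the 130 genes, of which 72 were annotated. Forms of an exon with another splice site were counted as separate exons. Of the 93, 40 were annotated as wholly coding in some transcript and 14 as coding in part. Among the 40 coding ones, 17 had a length that is a multiple of 3. Zfp251 has a KRAB exon of 133 bases that was in 21 of 37 reads in replicate 1 and 39 of 51 in replicate 2, or 66.6% ± 13.9 (SD, n = 2). All 111 bases of its KRAB-A box lie in that exon, and the length is not a multiple of 3. Zfp384, a nuclear matrix protein with 8 fingers, has an exon of 183 bases with 126 finger bases that was in 13 of 23 reads in replicate 1 and 10 of 19 in replicate 2, or 54.6% ± 2.75 (SD, n = 2). Leaving it out keeps the frame. In Zfp821 an exon of 105 bases with 66 finger bases was in 32 of 32 reads in replicate 1 and 32 of 41 in replicate 2, with Wilson 95% intervals of 89.3% to 100% and 63.3% to 88.0%.

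Other in-frame coding exons lay outside the fingers. The exon of 93 bases in Zfp207 was in 61 of 64 reads in replicate 1 (95.3%) and 50 of 59 in replicate 2 (84.7%). Zfp746, the repressor PARIS that accumulates when parkin is lost, has an exon of 126 bases in 26 of 36 reads in replicate 1 and 16 of 27 in replicate 2. Zfp638, a large RNA-binding nuclear protein, had 4 such exons of 66 to 102 bases, with mean inclusion from 28.4% to 91.6%. Zfp512 has a frame-shifting exon of 59 bases in 32 of 43 reads in replicate 1 and 26 of 43 in replicate 2. Single exons were not tested between the libraries. Other exons were coding in part or not at all: Zfp68 had a partly coding exon of 96 bases at 39.6% ± 0.51, Zfp410 one of 203 bases at 13.0% ± 2.31, and Zfp444 a noncoding exon of 120 bases at 29.2% ± 1.49 (SD, n = 2). A form of that Zfp68 exon with 90 bases, counted apart, was in 3 of 24 reads in replicate 1 and 6 of 40 in replicate 2. In Zfp771 an unannotated exon of 126 bases was in 3 of 52 reads in replicate 1 and 4 of 58 in replicate 2, and in Zfp428 one of 209 bases was in 6 of 32 and 5 of 35.

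The exons of Zfp251, Zfp384, Zfp207 and Zfp746 are given because they were left out of some reads. They hold a KRAB box, finger bases or another coding stretch. All are coding, from GENCODE M21 on mm10, 5′ to 3′: chr15:76870282-76870414 (minus strand) for Zfp251 with the KRAB-A box in capitals, chr6:125031671-125031853 (plus strand) for Zfp384 with zinc-binding codons in capitals, chr11:80393084-80393176 (plus strand) for Zfp207 and chr6:48066429-48066554 (minus strand) for Zfp746.
Zfp251: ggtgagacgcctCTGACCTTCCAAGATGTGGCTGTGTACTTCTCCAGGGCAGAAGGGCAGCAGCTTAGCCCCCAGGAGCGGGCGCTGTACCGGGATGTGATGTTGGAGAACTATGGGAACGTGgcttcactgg
Zfp384: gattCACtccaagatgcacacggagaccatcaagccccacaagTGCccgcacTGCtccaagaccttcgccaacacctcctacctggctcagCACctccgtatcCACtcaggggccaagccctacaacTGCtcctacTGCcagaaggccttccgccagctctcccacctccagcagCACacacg
Zfp207: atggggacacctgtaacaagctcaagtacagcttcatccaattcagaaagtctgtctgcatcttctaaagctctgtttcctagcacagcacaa
Zfp746: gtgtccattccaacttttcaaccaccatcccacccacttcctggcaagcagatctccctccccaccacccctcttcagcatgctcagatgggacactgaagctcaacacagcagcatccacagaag

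**Figure D5:**
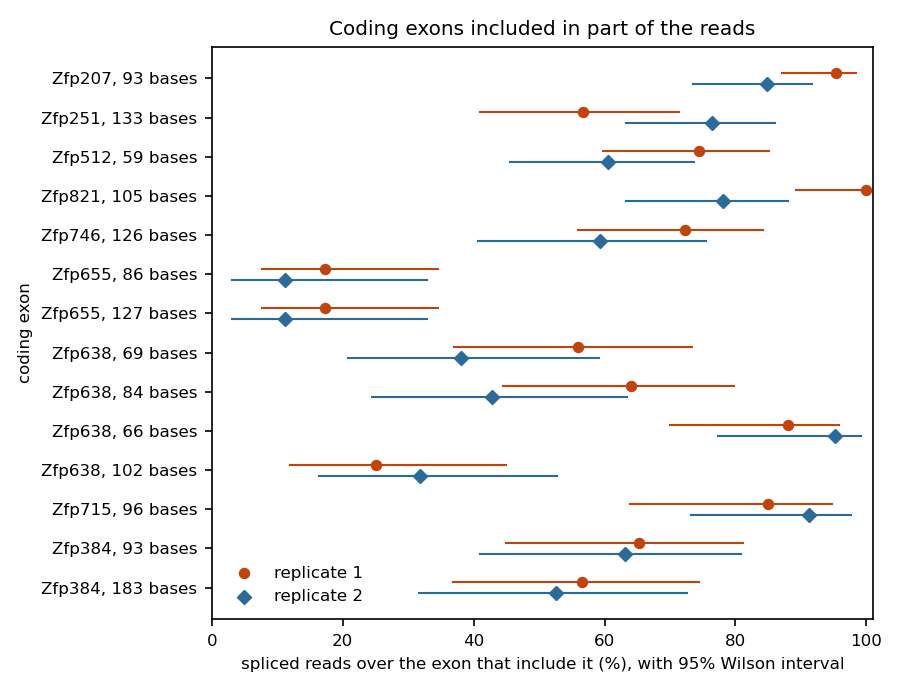
Share of spliced reads that include each annotated coding exon with at least 40 reads over both libraries (horizontal, %), with Wilson 95% intervals, circles for replicate 1 and diamonds for replicate 2. Inclusion runs from 14.2% on average for the Zfp655 exons to 91.6% for the 66-base exon of Zfp638, and the intervals of the 2 libraries overlap for every exon shown other than that of Zfp821.

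The 394 Zfp genes formed 51 runs of neighbours at most 100 kb apart. Within runs 64 of 222 genes reached 20 reads (28.8%), and outside runs 66 of 172 did (38.4%). On chromosome 6, in a run from 47819266 to 48086593, Zfp282, Zfp212, Zfp956, Zfp777 and Zfp746 were 5 of 7 genes. A run on chromosome 7 from 29768552 to 30169750 had 5 of 15, and the largest, 23 KRAB genes on chromosome 13 from 67038596 to 67827002, had only Zfp87. Near copies limit the count of some genes: the coding sequences of Zfp955a and Zfp955b were 98.2% identical, with 10 reads in each library for Zfp955a and 16 in replicate 1 and 10 in replicate 2 for Zfp955b. Zfp995 was the next closest, to Zfp947, which had no read, and Zfp942 was 87.6% identical to Zfp944. Reads of such pairs can be divided between copies by the alignment.

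Other finger families named by number differed in how many genes reached 20 reads. The 130 of 394 Zfp genes compare with 16 of 41 Zbtb genes, 7 of 30 Zscan and Zkscan genes, 8 of 17 Klf genes, 3 of 4 Egr genes and 0 of 5 Zic genes. The most abundant gene of those families was Zbtb18 with 744 reads over both libraries, below the 1118 of Zfp706. Klf9 had 532 and Egr4 had 102.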

How the data were processed

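Each library is a long-read RNA-seq library, and its deposited table gives whole-number read counts per transcript model, not normalized, made from the filtered alignment by the ENCODE long-read pipeline on mm10 with GENCODE M21, per the labels. No aligner is named in the sources used here, nor a caller other than by the word talon in a field name of the deposited models. Model positions and lengths came from the same deposited files, per the file headers. Spike-in reads were left out, which left 821324 mouse reads in replicate 1 and 743862 in replicate 2. Each read counts for 1 model, and an annotated model carries the exons of the catalogue whatever the ends of its reads.

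Zfp genes were matched by name, reads summed over all models, and levels set per 1000000 mouse reads. Reads of a gene against all other reads of the library were set in Fisher's exact test (two-sided) with Benjamini-Hochberg adjustment over all genes with at least 20 reads, tested on simulated data with 200 changed genes. The same test was used for main transcript shares with at least 20 reads in each library. Intervals are Wilson 95% intervals. Log2 ratios used 0.5 added reads. Fingers were found in the translated GENCODE M21 coding sequences, in place of the planned RefSeq proteins, which were not used here, as a pair of cysteines 2 to 4 residues apart, 12 residues, then a pair of histidines 3 to 5 apart. KRAB-A and SCAN needed 17 of 37 and 25 of 47 residues of a consensus. Members and lists were chosen with earlier results of these data known. The genes named were the 10 with the most reads, the 3 at each side of the read minimum, the 3 most abundant of each list, the 3 widest ratios each way and the 3 highest and lowest class shares among genes with at least 40 reads, the 5 lowest main transcript shares, the 10 with the most reads over a variable exon, the 3 with the most fingers and those with none. Other named genes, among them those with KRAB and no finger, with low reads, with spread-out fingers, or in runs and near copies, were chosen after their values were seen. Alternatives were TMM (edgeR 4.0.16) and DESeq2 1.42.0 size factors in R 4.3.3, other read minimums, annotated transcripts only, models of 1 read left out and each library alone. Other steps used Python 3.11.15 with numpy 2.4.6, scipy 1.17.1, edlib 1.3.9.post1 and matplotlib 3.10.9.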

Additional observations from a re-analysis of the deposited data

Results flagged for a closer look

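Reads on the opposite strand over the exons of a Zfp gene, on models outside annotated genes, were not part of the levels. They outnumbered the sense reads in 4 of the 130 genes. Reads given to an annotated gene on that strand were not counted here. Over Zfp207 there were 179 antisense reads, 91 in replicate 1 and 88 in replicate 2, against 69 sense reads in each, on 10 unspliced models and with no annotated gene opposite. Over Zfp386 there were 86, with 37 in replicate 1 and 49 in replicate 2, against 27 and 33 sense reads. Over Zfp445 there were 83, with 44 in replicate 1 and 39 in replicate 2, against 16 and 19 sense reads. Over Zfp532 there were 46, with 24 in replicate 1 and 22 in replicate 2, against 17 and 16 sense reads, and 12 of the antisense reads were spliced. The catalogue has 2 genes opposite Zfp532, AC132307.3 and AC132307.5. Of the other 126 genes, 53 had no antisense read of this kind and 73 had at least 1, of which 45 had 3 or fewer. How the strand of a read was set is not stated, so sense and antisense reads may not be told apart in full, and this was not tested.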

How the results depend on the processing

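With 2 libraries of 1 group, the number of Zfp genes that pass depends on the minimum: 217 at 10 reads, 58 at 40, 67 with annotated transcripts only, and 61 to 64 with a library left out. No Zfp gene differed between the libraries under any setting tried (5 or 6 at unadjusted p under 0.05, lowest adjusted p 0.220 to 0.427), while all genes that differed fell to 73 with annotated transcripts only, and those with another main transcript share to 1. As a median over genes, with models of 1 read left out, at 40 reads or more, and under 100 reads (added after seeing the data), the annotated share was 60.2%, 72.6%, 69.1% and 53.9%, incomplete matches 5.76%, 7.37%, 8.20% and 11.1%, new combinations 7.81%, 9.03%, 11.1% and 15.3%, and new splice sites 7.27%, 3.04%, 5.39% and 8.99%. Genomic models were 5.05% as a median, 6.23% at 40 reads or more and 10.8% under 100. With a library left out these shares ran from 63.3% to 64.7%, 8.95% to 9.26%, 11.79% to 12.01%, 6.77% to 6.89% and 7.51% to 8.80% in the same order, and full finger cover from 81.6% to 83.6%. Variable exons fell to 15 without new models and to 25 with 20 reads in each library. The cause of these shifts was not tested beyond what each setting removes. The other settings tried left their values within 1.5 times or 1 SD. No paired analysis was possible because there is only 1 group.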
